A study of Mus musculus with 6 samples.

Results

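The genes described here are 37 genes of glucose handling in the mouse kidney, chosen by name from the 24346 gene symbols of the deposited table. They comprise 4 genes of glucose transport, 17 of glycolysis and its control, 6 of gluconeogenesis and fructose use, and 10 of the hypoxia-inducible factor (HIF) pathway. All 37 were found in the table. The RNA was taken from C57BL/6 mouse kidneys, with 3 libraries for each of 2 groups. These are IVCC, named for an operation that the labels do not spell out, and Sham, its surgical control. The series title places the study in renal congestion, and the comparison asks how kidney transcripts differ after IVCC surgery. Age, sex, the time after surgery and the part of the kidney taken are not given in the labels, and nothing there says that replicates are separate animals, so the tests reflect only variation among these libraries, which may be technical.

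The kidney both burns and makes glucose, and it does so in different places. Proximal tubule cells take back filtered glucose, use fatty acids and glutamine as fuel, and make new glucose from lactate and amino acids, whereas distal segments and the medulla rely more on glycolysis. The HIF factors are transcription factors whose alpha subunits are hydroxylated by oxygen-dependent enzymes and then removed through the VHL ubiquitin ligase. When oxygen falls the subunits persist and bind promoters and enhancers that carry the core letters ACGTG or GCGTG, many of them at genes of glycolysis. Because HIF1A and HIF2A are controlled mainly as proteins, the transcripts of their targets are the usual RNA readout of the pathway.

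No gene of this set passed the threshold in either direction. Levels in FPKM, a unit that corrects fragment counts for transcript length and library size, were compared on the log2(FPKM + 1) scale with limma over all 12090 genes that averaged 1 FPKM or more, at an adjusted p of 0.05. Of the 37 genes, 35 were tested, and 0 were called higher or lower, against 0% of all tested genes. At an unadjusted p under 0.05 there was 1 of 35, Pck2, higher in IVCC, where 1.7% of all tested genes were higher at that p and 1.87% lower (3.56% in either direction). At that p there were 5 higher after TPM scaling (G6pc, Pck2, Pcx, Slc2a2 and Slc5a2), 3 after quantile normalization (Pcx, Slc2a2 and Slc5a2) and 4 without Sham replicate 3 (Pck2, Pcx, Slc2a2 and Slc5a2). In the same order of settings, 349 of 12123, 485 of 12090 and 364 of 12115 tested genes were at that p in either direction. TPM scaling also moved the median log2 fold change of all tested genes to 0.14. None of the 35 was left without IVCC replicate 1, IVCC replicate 2 or Sham replicate 2, with a filter at 5 FPKM or with robust eBayes. The 1 gene was Hif1a without IVCC replicate 3 (beside 1039 of all tested genes) and Hk1 without Sham replicate 1 (beside 369). The smallest limma adjusted p among the 35 was 0.924. Their log2 fold changes ran from -0.23 (Gapdh) to 0.31 (Pck2), with a median of -0.0054 beside -0.0082 for all tested genes. These values are on the log2(FPKM + 1) scale, which understates the change of low genes.

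Promoter letters are shown for 4 genes. Pck2 and Adm had the smallest unadjusted p of the set, and Bnip3 and Pgk1 are textbook hypoxia targets whose group means differed little. The 250 bases before the annotated RefSeq start (GRCm38.p6) are given 5′ to 3′ on the gene's strand, with capitals marking each match to ACGTG or GCGTG on either strand (CACGT and CACGC where the match reads on the opposite strand). The windows are chr14:55540016-55540265 (plus strand) for Pck2, chr7:110627407-110627656 (plus strand) for Adm, chr7:138909507-138909756 (minus strand) for Bnip3 and chrX:106186850-106187099 (plus strand) for Pgk1.
Pck2: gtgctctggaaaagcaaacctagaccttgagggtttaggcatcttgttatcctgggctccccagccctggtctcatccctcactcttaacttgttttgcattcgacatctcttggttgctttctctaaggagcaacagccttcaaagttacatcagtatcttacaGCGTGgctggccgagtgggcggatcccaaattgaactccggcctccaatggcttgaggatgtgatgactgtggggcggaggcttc
Adm: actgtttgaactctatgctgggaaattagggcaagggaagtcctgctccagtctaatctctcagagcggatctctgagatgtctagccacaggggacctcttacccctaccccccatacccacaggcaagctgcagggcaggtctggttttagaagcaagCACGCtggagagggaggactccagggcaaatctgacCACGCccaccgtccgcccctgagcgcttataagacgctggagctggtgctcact
Bnip3: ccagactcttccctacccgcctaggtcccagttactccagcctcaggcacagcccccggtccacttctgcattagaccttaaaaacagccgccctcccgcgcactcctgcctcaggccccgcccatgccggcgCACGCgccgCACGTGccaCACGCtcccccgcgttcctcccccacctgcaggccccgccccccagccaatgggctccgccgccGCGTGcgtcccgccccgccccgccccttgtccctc
Pgk1: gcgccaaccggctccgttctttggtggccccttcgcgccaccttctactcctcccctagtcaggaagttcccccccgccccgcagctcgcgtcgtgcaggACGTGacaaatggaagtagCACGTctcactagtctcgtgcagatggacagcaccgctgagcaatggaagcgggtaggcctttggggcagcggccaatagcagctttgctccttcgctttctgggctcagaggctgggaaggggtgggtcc
Pck2 held 1 match, Adm 2 on the opposite strand, Bnip3 5 and Pgk1 2, and in Bnip3 the ACGTG letters overlap on both strands. Of the 37 genes 34 were in the promoter table, with 47 annotated starts, of which 72.3% held a match in these 250 bases, beside 38.6% of all 32851 starts in the table. By role, a match at any start was found in 2 of 3 transport genes, 15 of 17 glycolysis genes, 3 of 6 gluconeogenesis and fructose genes and 7 of 8 HIF genes. The median log2 fold change was -0.031 for the 25 tested genes with a match and 0.032 for the 7 without. Of the 27 genes with a match, tested or not, 15 were glycolysis genes, so this contrast is mixed with role. It is given for the deposited values only. ACGTG and GCGTG each hold the letters CG, and the starts compared were not matched for base content. A match describes letters and not a bound site.

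**Figure D1:**
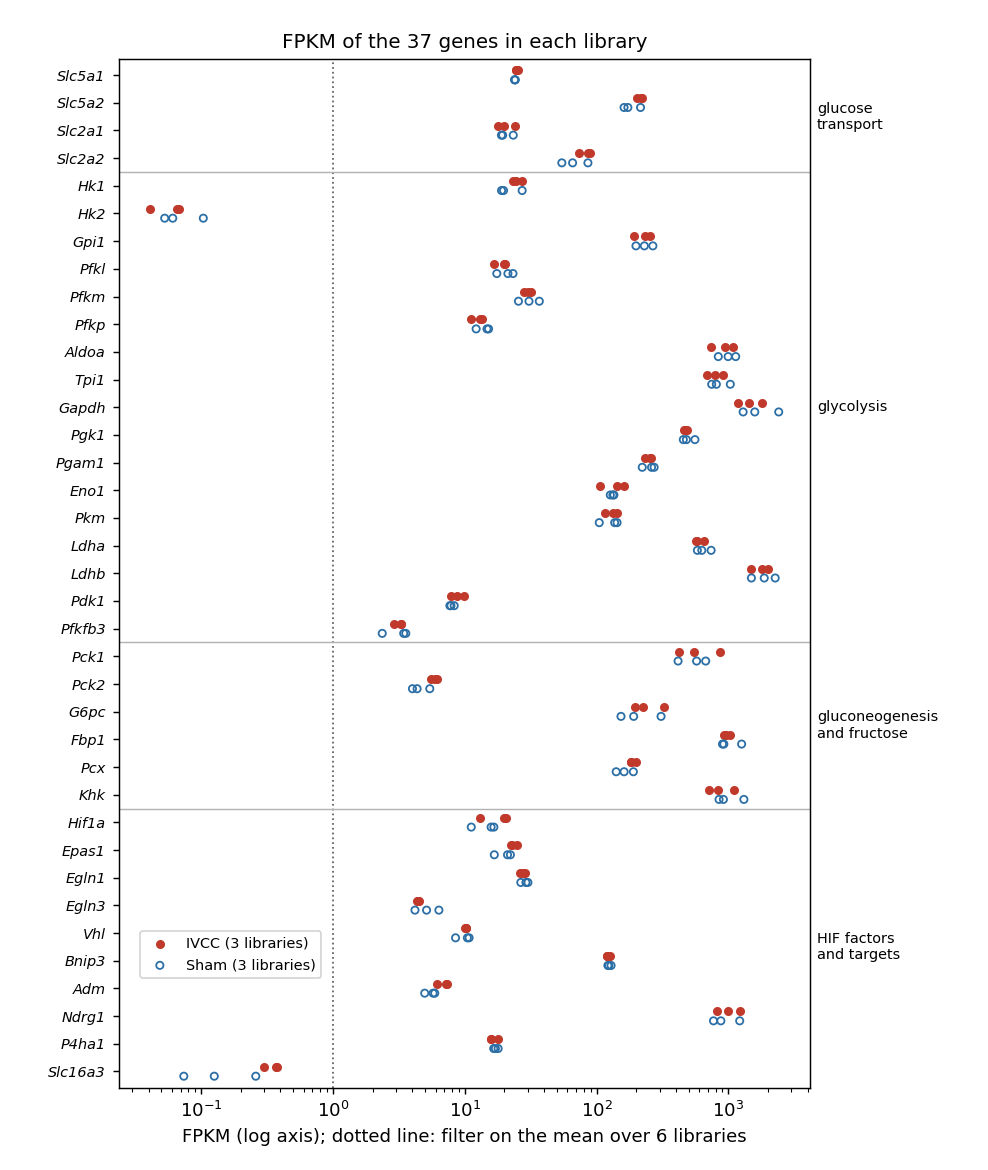
FPKM of each of the 37 genes on a log axis, with the 3 IVCC libraries as filled red points above the 3 Sham libraries as open blue points, grouped by role. Levels span from 0.041 FPKM for Hk2 in IVCC replicate 3 to 2406 FPKM for Gapdh in Sham replicate 3, and the IVCC and Sham points overlap for most genes.

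Glucose enters the proximal tubule through sodium-coupled transporters in the brush border and leaves through facilitative transporters on the blood side. Slc5a2 encodes SGLT2, the high-capacity carrier of the early proximal tubule (chromosome 7, 128265657 to 128272430, plus strand, GRCm38), and it stood at 218, 222 and 201 FPKM in IVCC replicates 1 to 3, against 162, 173 and 215 FPKM in Sham. The IVCC libraries spread less, and Sham replicate 3 lay inside their range while the other Sham libraries lay below it. Its log2 fold change was 0.23 (95% interval -0.11 to 0.57, limma adjusted p = 0.924). Slc2a2 encodes GLUT2, the basolateral carrier that pairs with SGLT2, and its levels were 72.9, 89.8 and 85.3 FPKM in IVCC replicates 1 to 3, against 54.5, 65.8 and 85.9 FPKM in Sham. Again Sham replicate 3 lay among the IVCC values and Sham replicates 1 and 2 below all of them, with a log2 fold change of 0.28 (95% interval -0.14 to 0.70, limma adjusted p = 0.924). The 2 carriers thus had the same order of Sham libraries, lowest in replicate 1 and highest in replicate 3.

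Slc5a1 encodes SGLT1, the high-affinity carrier of the late proximal tubule, and was the steadiest gene of the set, at 24.3, 25.5 and 24.4 FPKM in IVCC replicates 1 to 3, against 23.9, 23.991 and 24.2 FPKM in Sham. The 3 IVCC values lay above the 3 Sham values, but by a log2 fold change of only 0.041 (95% interval -0.18 to 0.26, limma adjusted p = 0.947), and the groups overlapped after TPM scaling (each library set to the same total), median ratio scaling and quantile normalization. Slc2a1 encodes GLUT1, the carrier of glycolytic segments, and stood at 23.9, 17.9 and 19.9 FPKM in IVCC replicates 1 to 3, against 23.3, 19.4 and 18.979 FPKM in Sham. Replicate 1 was the highest in each group, and the log2 fold change was -0.0054 (95% interval -0.34 to 0.33, limma adjusted p = 0.996). The ratio of Slc5a2 to Slc5a1, which needs no scaling between libraries, was 8.97, 8.7 and 8.25 in IVCC and 6.77, 7.19 and 8.91 in Sham. Sham replicate 3 was again inside the IVCC range. Markers of the early proximal tubule (S1 and S2) summed to 4276 to 4412 FPKM in IVCC kidneys, beside 3752 to 4076 FPKM in Sham kidneys. Although 6 of 8 were fitted higher, only 1, Slc34a1, had no overlap between the groups. Slc34a1 was the most abundant of the 8 and weighed most in the sum. It was at 2442, 2377 and 2576 FPKM in the IVCC replicates, beside 2258, 2131 and 2164 FPKM in the Sham replicates. The separation of the sums is therefore not a shift shared by the whole list. Markers of the late segment (S3) summed to 5398 to 7408 FPKM in IVCC kidneys, beside 6496 to 8479 FPKM in Sham kidneys, with 7 of 8 fitted lower. Among the S3 markers Cyp7b1 was at 51.0, 64.7 and 91.4 FPKM in the IVCC replicates, beside 97.0, 188 and 171 FPKM in the Sham replicates. None of these markers passed the limma threshold, none was at 0 in all libraries, and their part in the carriers' values was not tested. In kidney RNA, where the part taken is not stated, fewer cells of a type and less RNA per cell cannot be told apart.

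**Figure D2:**
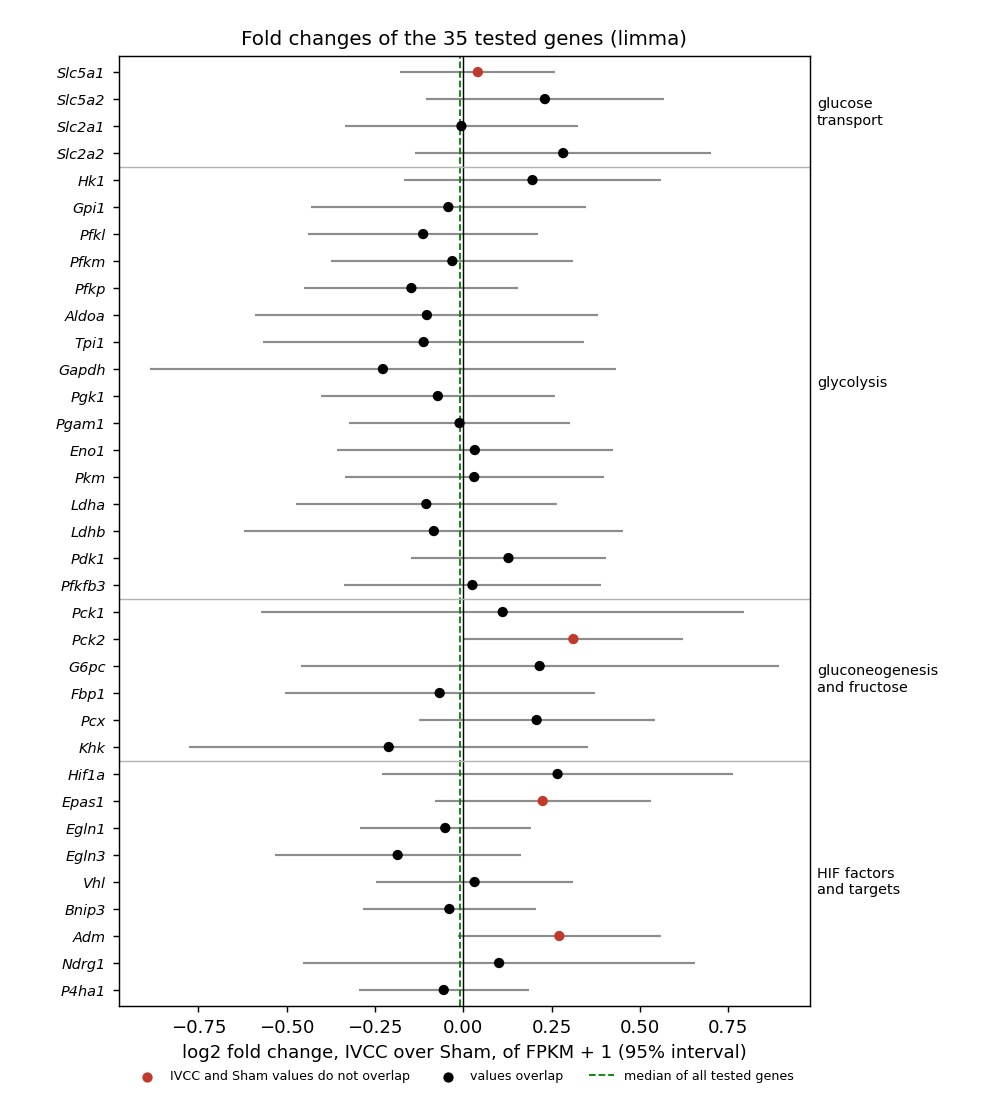
Log2 fold change of IVCC over Sham for the 35 tested genes with its 95% interval from limma, grouped by role, with red points where the 3 IVCC and the 3 Sham values do not overlap and a dashed line at the median of all tested genes. All intervals but that of Pck2 include 0.

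The glycolytic enzymes differed far more from each other than between the groups. Summed over the genes of a step, hexokinase had the lowest level. It was 26.6 ± 2.2 FPKM in IVCC kidneys, beside 23.4 ± 5.14 FPKM in Sham kidneys (SD over libraries, n = 3 libraries each, here and below). Phosphofructokinase, the committed step, was next at 61.6 ± 5.14 FPKM in IVCC kidneys, beside 65.7 ± 9.98 FPKM in Sham kidneys. Of the 10 steps described, lactate dehydrogenase was the highest, and summed to 2359 ± 305 FPKM in IVCC kidneys, beside 2524 ± 464 FPKM in Sham kidneys, and pyruvate kinase to 145 ± 13.9 FPKM in IVCC kidneys, beside 143 ± 20.7 FPKM in Sham kidneys. In each of the 10 steps the IVCC and Sham libraries overlapped.

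**Figure D3:**
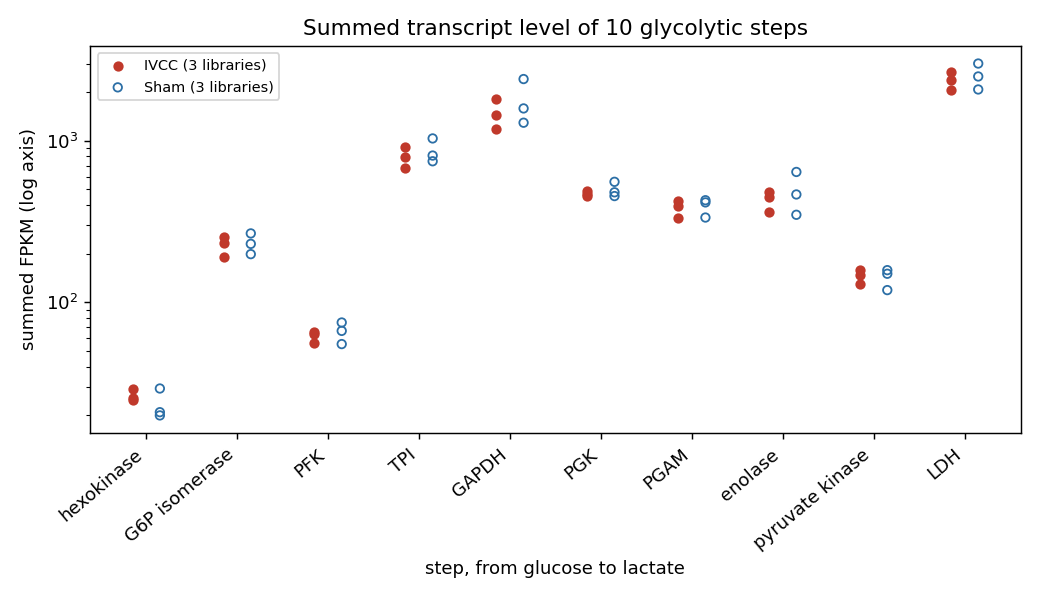
Summed FPKM of the genes of each of 10 steps between glucose and lactate, on a log axis, with the 3 IVCC libraries as filled red points left of the 3 Sham libraries as open blue points. Hexokinase and phosphofructokinase lie lowest and lactate dehydrogenase highest of these in all 6 libraries, and the groups overlap at each step.

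Among the hexokinase genes Hk1, the broadly expressed form, carried 92.8% to 95.2% of the summed level. It stood at 27.4, 24.5 and 23.2 FPKM in IVCC replicates 1 to 3, against 27.2, 19.004 and 19.7 FPKM in Sham. Sham replicates 2 and 3 were the lowest libraries, Sham replicate 1 lay within the IVCC range, and the log2 fold change was 0.20 (95% interval -0.17 to 0.56, limma adjusted p = 0.924). Hk2, the hexokinase that HIF and insulin induce in other tissues, stayed below the filter at 0.068, 0.066 and 0.041 FPKM in the IVCC replicates, beside 0.053, 0.104 and 0.061 FPKM in the Sham replicates. With the filter dropped, its log2 fold change was -0.019 at an unadjusted limma p of 0.668 (adjusted p = 0.943). Pfkfb3 makes the allosteric activator of phosphofructokinase and is a hypoxia target. It was low, at 3.29, 3.31 and 2.91 FPKM in the IVCC replicates, beside 3.44, 3.57 and 2.37 FPKM in the Sham replicates, and Sham replicate 3 was the lowest library.

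The shares of the phosphofructokinase isozymes varied little. Pfkm, the muscle-type subunit, made up 47.8, 50.1 and 48.6 in IVCC and 46.0, 46.2 and 48.9 in Sham as a percentage of the summed FPKM of Pfkl, Pfkm and Pfkp. Pfkl, the liver-type subunit, made up 30.0% to 31.9% and Pfkp, the platelet-type subunit, 19.9% to 22.1% over the 6 libraries. Groups overlapped for each share. The log2 fold changes of the level were -0.031 for Pfkm, -0.11 for Pfkl and -0.15 for Pfkp, with limma adjusted p-values of 0.972, 0.924 and 0.924.

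Several abundant enzymes of the pathway had the same order of libraries in each group. Gapdh, which oxidises glyceraldehyde phosphate, stood at 1438, 1181 and 1805 FPKM in IVCC replicates 1 to 3, against 1584, 1292 and 2406 FPKM in Sham. Replicate 2 was the lowest and replicate 3 the highest in each group, and the log2 fold change was -0.23 (95% interval -0.89 to 0.43, limma adjusted p = 0.924). Aldoa, the muscle-type aldolase, had the same order at 941, 742 and 1091 FPKM in the IVCC replicates, beside 994, 838 and 1135 FPKM in the Sham replicates, as did Tpi1, which interconverts the triose phosphates, at 794, 682 and 913 FPKM in the IVCC replicates, beside 809, 746 and 1033 FPKM in the Sham replicates. Gpi1, the isomerase of glucose phosphate, averaged 225 ± 31.6 FPKM in IVCC kidneys, beside 232 ± 34.2 FPKM in Sham kidneys. Pgk1, the kinase that makes the pathway's earliest ATP, averaged 471 ± 15.1 FPKM in IVCC kidneys, beside 497 ± 53.3 FPKM in Sham kidneys, and Pgam1, a phosphoglycerate mutase, 249 ± 13.022 FPKM in IVCC kidneys, beside 252 ± 26.8 FPKM in Sham kidneys. Several of these genes have processed pseudogenes that can share reads with them, so their levels are uncertain to that extent.

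Eno1 encodes the main enolase of epithelia and was listed at 162, 142 and 106 FPKM in IVCC replicates 1 to 3, against 127, 133 and 135 FPKM in Sham. Its retrogene copy Eno1b was listed at 281, 216 and 366 FPKM in the IVCC replicates, beside 332, 209.997 and 499 FPKM in the Sham replicates, and reads of near-identical copies can be divided between them in either way. The ratio of Eno1 to Eno1b was 0.577, 0.657 and 0.29 in IVCC and 0.382, 0.633 and 0.271 in Sham, so the split varied from library to library. The sum of both was 444, 359 and 472 FPKM in IVCC and 459, 343 and 634 FPKM in Sham, with replicate 2 lowest and replicate 3 highest in each group, and the level of Eno1 alone is uncertain.

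At the end of the pathway, Pkm, whose splice forms are the pyruvate kinases of most tissues, stood at 143, 116 and 132 FPKM in IVCC replicates 1 to 3, against 137, 105 and 143 FPKM in Sham, with a log2 fold change of 0.031 (95% interval -0.34 to 0.40, limma adjusted p = 0.973). It exceeded Pklr, the liver and proximal tubule pyruvate kinase, by a ratio of 7.26 to 10.3 over the libraries. Ldha, the lactate-forming subunit and a hypoxia target, stood at 582, 568 and 655 FPKM in IVCC replicates 1 to 3, against 628, 581 and 739 FPKM in Sham, with a log2 fold change of -0.10 (95% interval -0.47 to 0.26, limma adjusted p = 0.929). Ldhb, the subunit that favours lactate use, stood at 1792, 1479 and 2001 FPKM in IVCC replicates 1 to 3, against 1868, 1493 and 2262 FPKM in Sham. The Ldhb to Ldha ratio was 3.08, 2.6 and 3.05 in IVCC and 2.98, 2.57 and 3.06 in Sham, lowest in replicate 2 of each group and overlapping between the groups. Pdk1, a hypoxia-induced kinase that holds pyruvate back from the mitochondria, averaged 8.82 ± 1.03 FPKM in IVCC kidneys, beside 7.96 ± 0.315 FPKM in Sham kidneys, with a log2 fold change of 0.13 (95% interval -0.15 to 0.40, limma adjusted p = 0.924). Its highest value, 9.92 FPKM, was in IVCC replicate 2, IVCC replicate 1 lay above the Sham values too, and IVCC replicate 3 lay among them.

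Over the 16 tested glycolysis genes the median log2 fold change was -0.057, with 5 fitted above 0 and 11 below, and 0 called. This sign flipped with the scaling: the median was 0.12 after TPM scaling, which itself moves the median of all tested genes to 0.14, and 0.10 after quantile normalization. It also flipped to 0.010 without IVCC replicate 2 and to 0.037 without Sham replicate 3. Relative to each gene's mean over the 6 libraries, the median deviation of these genes was 0.017, -0.14 and 0.046 in IVCC replicates 1 to 3 and 0.039, -0.17 and 0.22 in the Sham replicates. Sham replicate 3 was the highest library and the replicates numbered 2 the lowest. The 1177 genes of the table that averaged 100 FPKM or more had deviations of -0.11, -0.26 and 0.12 in IVCC replicates 1 to 3 and 0.011, -0.12 and 0.36 in the Sham replicates, and Sham replicate 3 was the highest there too. The part of this spread in the glycolysis values was not tested.

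**Figure D4:**
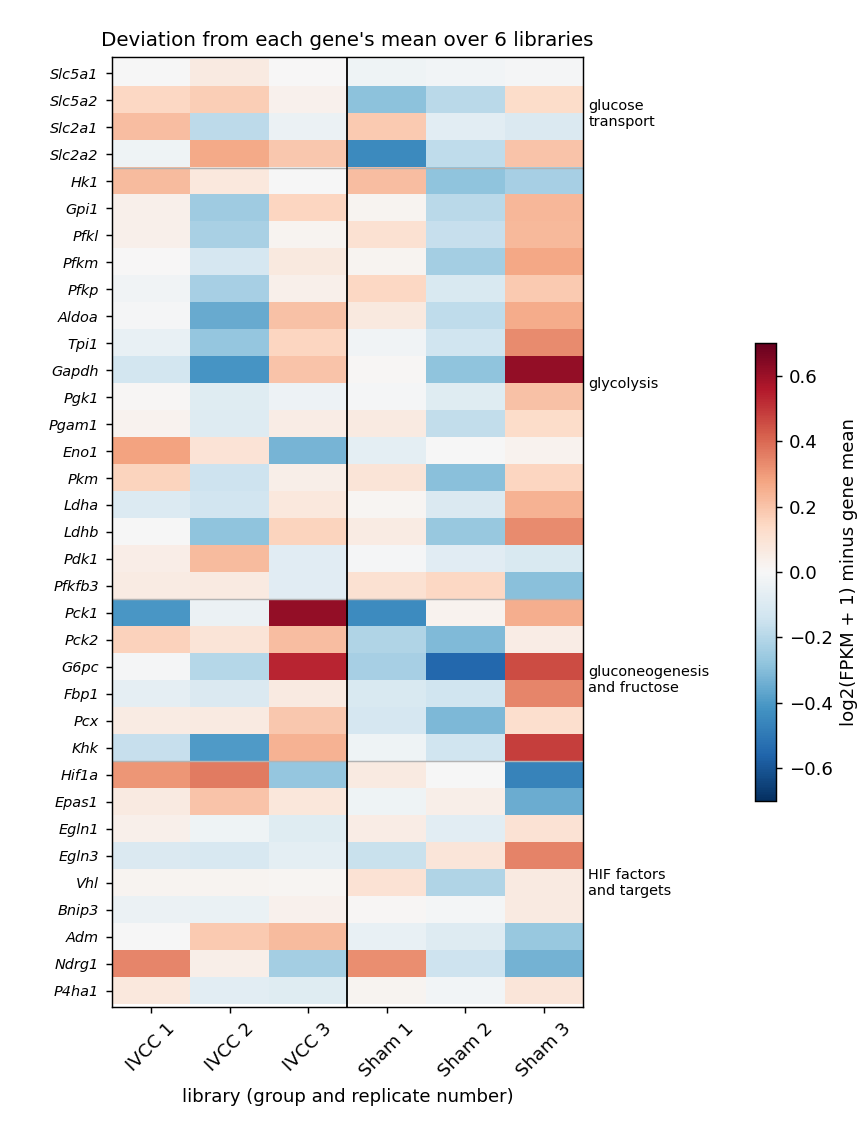
Deviation of log2(FPKM + 1) from each gene's mean over the 6 libraries for the 35 tested genes (rows, by role) in IVCC replicates 1 to 3, left, and Sham replicates 1 to 3, right, with red above and blue below the mean. Abundant glycolysis and gluconeogenesis genes are red in Sham replicate 3, and the column of Sham replicate 2 is blue for most glycolysis genes.

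Gluconeogenesis turns lactate, glutamine and other substrates into glucose in the proximal tubule. Pck2, the mitochondrial phosphoenolpyruvate carboxykinase (chromosome 14, 55540266 to 55551242, plus strand, GRCm38), stood at 5.93, 5.59 and 6.21 FPKM in IVCC replicates 1 to 3, against 4.35, 4.01 and 5.43 FPKM in Sham. All 3 IVCC values lay above all 3 Sham values, the nearest being 5.59 FPKM in IVCC replicate 2 and 5.43 FPKM in Sham replicate 3. Its log2 fold change was 0.31 (95% interval 0.0023 to 0.62, limma adjusted p = 0.924), and its unadjusted p of 0.0487 by limma did not survive adjustment over all genes. Without IVCC replicate 1, IVCC replicate 2, IVCC replicate 3, Sham replicate 1 or Sham replicate 2 the unadjusted p was 0.0674 to 0.145, and without Sham replicate 3 it was 0.0136. Pck1, the cytosolic form that is hormonally controlled and far more abundant here, stood at 425, 549 and 863 FPKM in IVCC replicates 1 to 3, against 415, 573 and 672 FPKM in Sham. Replicate 3 was the highest and replicate 1 the lowest in each group, and the log2 fold change was 0.11 (95% interval -0.57 to 0.80, limma adjusted p = 0.953). The Pck1 to Pck2 ratio was 71.7, 98.2 and 139 in IVCC and 95.3, 143 and 124 in Sham, with overlap.

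G6pc, the catalytic subunit of glucose 6-phosphatase that releases free glucose, stood at 223, 195 and 325 FPKM in IVCC replicates 1 to 3, against 191, 153 and 308 FPKM in Sham. It had the order of the abundant genes, lowest in replicate 2 and highest in replicate 3 of each group, with a log2 fold change of 0.22 (95% interval -0.46 to 0.89, limma adjusted p = 0.925). Fbp1, the fructose bisphosphatase that opposes phosphofructokinase, stood at 951, 926 and 1035 FPKM in IVCC replicates 1 to 3, against 923, 901 and 1259 FPKM in Sham. It exceeded the summed phosphofructokinase genes by a ratio of 13.8 to 16.7, and its log2 fold change was -0.067 (95% interval -0.51 to 0.37, limma adjusted p = 0.956). Pcx, the pyruvate carboxylase that starts gluconeogenesis from lactate, stood at 182, 183 and 199.968 FPKM in IVCC replicates 1 to 3, against 162, 141 and 190.1 FPKM in Sham, with 2 Sham libraries below and Sham replicate 3 inside the IVCC range, as for Slc5a2 and Slc2a2. Its log2 fold change was 0.21 (95% interval -0.13 to 0.54, limma adjusted p = 0.924). Khk, ketohexokinase, which feeds fructose into the pathway, stood at 835, 711 and 1105 FPKM in IVCC replicates 1 to 3, against 916, 849 and 1309 FPKM in Sham, with a log2 fold change of -0.21 (95% interval -0.78 to 0.35, limma adjusted p = 0.924). The median of these 6 genes was 0.16, with 4 fitted above 0, 2 below and 0 called, and it was -0.055 without IVCC replicate 3.

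Of the HIF factors, Hif1a encodes HIF1A, the subunit made in most cells, and stood at 19.9, 20.7 and 12.961 FPKM in IVCC replicates 1 to 3, against 16.6, 15.8 and 11.2 FPKM in Sham. Replicate 3 was the lowest in each group, the groups overlapped, and the log2 fold change was 0.27 (95% interval -0.23 to 0.76, limma adjusted p = 0.924). Without IVCC replicate 3 its log2 fold change was 0.47 at an unadjusted limma p of 0.0377, and the adjusted p was 0.552. Epas1 encodes HIF2A, which in the kidney is found in endothelial and interstitial cells (chromosome 17, 86753700 to 86833410, plus strand, GRCm38). It stood at 22.5, 24.9 and 22.8 FPKM in IVCC replicates 1 to 3, against 21.1, 22.2 and 16.8 FPKM in Sham. The 3 IVCC values lay above the Sham values, by 22.5 FPKM in IVCC replicate 1 against 22.2 FPKM in Sham replicate 2 at the nearest point, and the log2 fold change was 0.22 (95% interval -0.080 to 0.53, limma adjusted p = 0.924). The groups overlapped for Epas1 after TPM, median ratio and quantile scaling. The Epas1 to Hif1a ratio was 1.13, 1.21 and 1.76 in IVCC and 1.27, 1.4 and 1.49 in Sham, with overlap.

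Markers of blood endothelium, 7 of 7 of them fitted higher and none at 0, summed to 132 to 140.016 FPKM in IVCC kidneys, beside 114 to 128 FPKM in Sham kidneys. Macrophage markers, 7 of 8 tested fitted higher, summed to 92.5 to 113 FPKM in IVCC kidneys, beside 82.8 to 89.5 FPKM in Sham kidneys. At an unadjusted limma p under 0.05, 3 of them were higher and 1, Csf1r, was lower. Csf1r stood at 10.6, 11.2 and 14.1 FPKM in the IVCC replicates, beside 13.6, 17.4 and 16.3 FPKM in the Sham replicates. Fibroblast markers, 5 of 6 tested fitted higher, summed to 43.3 to 49.6 FPKM in IVCC kidneys, beside 34.6 to 40.1 FPKM in Sham kidneys. Those 5 fibroblast markers were each at an unadjusted p under 0.05 with no overlap between the groups. Podocyte markers summed to 60.7 to 106 FPKM in IVCC kidneys, beside 50.7 to 54.1 FPKM in Sham kidneys. Of these, 6 of 6 were fitted higher with a median log2 fold change of 0.61, 5 of 6 at an unadjusted p under 0.05 and 3 of 6 without overlap. Of all tested genes, 1.7% were higher and 1.87% lower at that p, and 4.09% lay wholly higher. None of these markers passed the limma threshold, and their part in the values of Hif1a, Epas1 and Adm was not tested.

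Of the genes whose products mark HIF for removal, Egln1 and Vhl differed little between the groups and Egln3 had the lowest fold change of the HIF genes. Egln1, the main oxygen-sensing prolyl hydroxylase, averaged 27.6 ± 1.23 FPKM in IVCC kidneys, beside 28.6 ± 1.81 FPKM in Sham kidneys, with a log2 fold change of -0.051 (95% interval -0.29 to 0.19, limma adjusted p = 0.939). Vhl, the substrate receptor of the ubiquitin ligase, stood at 10.1, 10.1 and 10.1 FPKM in the IVCC replicates, beside 10.8, 8.52 and 10.5 FPKM in the Sham replicates, with a log2 fold change of 0.032 (95% interval -0.25 to 0.31, limma adjusted p = 0.965). Its IVCC libraries differed from each other by less than 0.1 FPKM, and the Sham libraries lay on either side of them. Egln3, a hydroxylase that is itself strongly induced by HIF, stood at 4.4, 4.35 and 4.52 FPKM in IVCC replicates 1 to 3, against 4.19, 5.13 and 6.37 FPKM in Sham. Sham replicate 1 lay below all IVCC libraries and the other Sham libraries above, and the log2 fold change was -0.19 (95% interval -0.53 to 0.16, limma adjusted p = 0.924).

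Among the HIF targets, Adm, which encodes the vasodilator peptide adrenomedullin (chromosome 7, 110627661 to 110629820, plus strand, GRCm38), stood at 6.17, 7.17 and 7.38 FPKM in IVCC replicates 1 to 3, against 5.92, 5.75 and 4.97 FPKM in Sham. All IVCC values lay above all Sham values, and this held after TPM, median ratio and quantile scaling. The log2 fold change was 0.27 (95% interval -0.015 to 0.56, limma adjusted p = 0.924), with an unadjusted p of 0.0601. Adm is also made by endothelial cells. Bnip3, a mitophagy receptor and direct HIF target, was among the steadiest genes at 119, 119 and 126 FPKM in IVCC replicates 1 to 3, against 124, 122 and 129 FPKM in Sham, with a log2 fold change of -0.039 (95% interval -0.28 to 0.21, limma adjusted p = 0.955). P4ha1, the collagen prolyl hydroxylase subunit, averaged 16.5 ± 1.11 FPKM in IVCC kidneys, beside 17.2 ± 0.667 FPKM in Sham kidneys, with a log2 fold change of -0.055 (95% interval -0.30 to 0.18, limma adjusted p = 0.934). Ndrg1, a stress-responsive gene that was very abundant here, stood at 1231, 999 and 824 FPKM in IVCC replicates 1 to 3, against 1217, 876 and 770.1 FPKM in Sham, with replicate 1 the highest and replicate 3 the lowest in each group. Its log2 fold change was 0.10 (95% interval -0.45 to 0.65, limma adjusted p = 0.948). Slc16a3 encodes MCT4, the lactate exporter of glycolytic cells, and stayed below the filter at 0.371, 0.375 and 0.298 FPKM in the IVCC replicates, beside 0.26, 0.126 and 0.074 FPKM in the Sham replicates. Its groups did not overlap. With the filter dropped, its log2 fold change was 0.23 at an unadjusted limma p of 0.0187 (adjusted p = 0.916). It was then the only 1 of all 37 genes at an unadjusted p under 0.05, beside 780 of all 17572 genes tested without the filter. The ratio of its group means was 2.27, which the added 1 FPKM compresses at levels this low. The number of reads behind these levels is unknown. The library sizes estimated below were smaller for every Sham library than for any IVCC library, and the part of this in the Slc16a3 values was not tested.

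Across the 9 tested HIF genes the upper end of the 95% interval ran from 0.16 (Egln3) to 0.76 (Hif1a) on the log2 scale, from 0.40 (Egln3) to 1.192 (Hif1a) after TPM scaling and from 0.14 (Egln3) to 1.011 (Ndrg1) after quantile normalization, each unadjusted for the number of genes. The median of the 9 tested HIF genes was 0.032, with 5 fitted above 0, 4 below and 0 called. It was -0.028 without IVCC replicate 1, -0.056 without Sham replicate 2, -0.014 without Sham replicate 3 and 0.090 without Sham replicate 1, so its sign rested on single libraries.

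Over the whole set the 3 IVCC values did not overlap the 3 Sham values for 4 of 35 tested genes, all higher in IVCC (Slc5a1, Pck2, Epas1 and Adm), where 4.09% of all tested genes lay wholly higher and 4.22% wholly lower (8.31% in either direction). After median ratio scaling 2 were left, Pck2 and Adm, where 3.68% of all tested genes lay wholly higher. After TPM scaling the 4 genes were Slc2a2, Pck2, Pcx and Adm, where 5.91% of all tested genes lay wholly higher. After quantile normalization they were Slc5a2, Slc2a2, Pcx and Adm, where 3.65% lay wholly higher. Of the 35 log2 fold changes 17 were above 0, and this count was 32 after TPM scaling and 29 after quantile normalization. Relative to the median of all tested genes, 18 were higher as deposited, 19 after TPM scaling and 29 after quantile normalization.

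**Figure D5:**
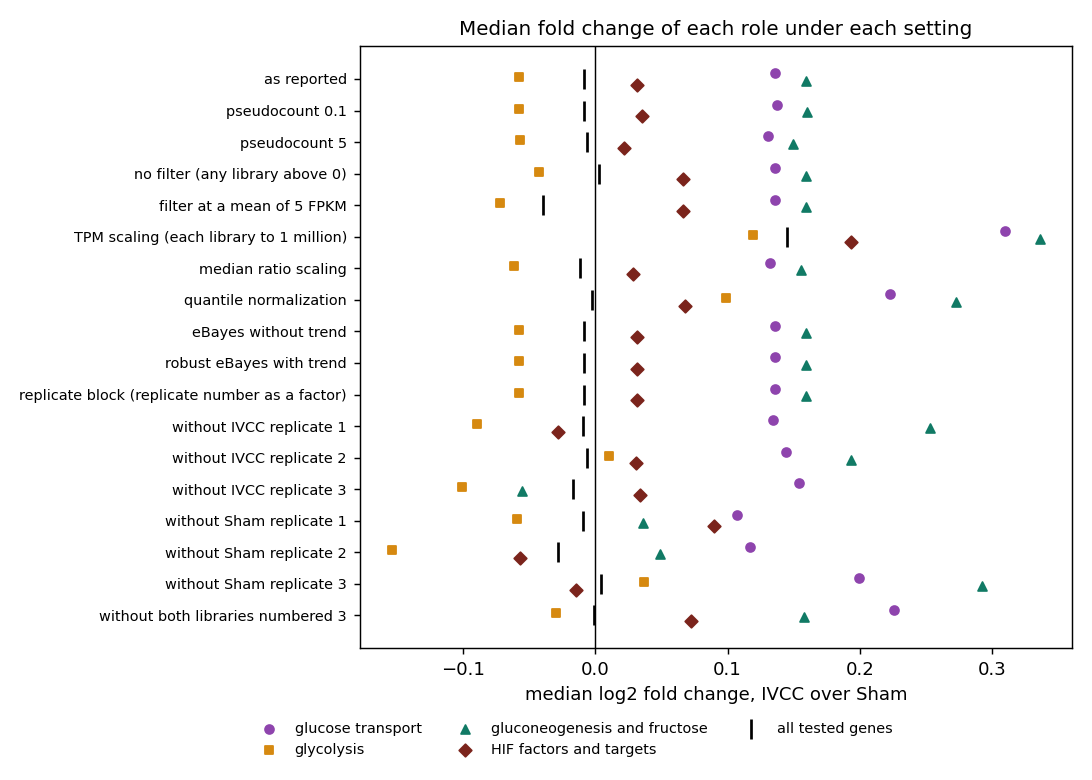
Median log2 fold change of IVCC over Sham for each of the 4 roles (symbols) and for all tested genes (black ticks) under each setting tried. Glycolysis lies below 0 as reported and above 0 after TPM scaling and quantile normalization, and all medians lie within 0.4 of 0.

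Further genes of the same pathways were not called either. Of 90 further genes listed, 89 were in the table and 75 were tested, and limma called 0, with 0 higher and 3 lower at an unadjusted p under 0.05, where 1.7% and 1.87% of all tested genes were. The 75 had a median log2 fold change of 0.0074, and the IVCC and Sham values did not overlap for 3 higher and 6 lower genes, beside 4.09% and 4.22% of all tested genes. The 3 at an unadjusted p under 0.05 were Pfkfb4, a hypoxia-induced relative of Pfkfb3, at 2.72, 3.11 and 2.85 FPKM in the IVCC replicates, beside 3.64, 4.32 and 3.65 FPKM in the Sham replicates, and the hypoxia targets Ankrd37, at 2.08, 1.34 and 2.02 FPKM in the IVCC replicates, beside 2.65, 2.57 and 2.79 FPKM in the Sham replicates, and Ddit4, an inhibitor of mTOR that glucocorticoids also induce, at 7.19, 7.75 and 9.02 FPKM in the IVCC replicates, beside 9.5, 12.2 and 9.54 FPKM in the Sham replicates. Each was wholly lower in IVCC, with log2 fold changes of -0.32, -0.39 and -0.34 and a limma adjusted p of 0.924 each. These hypoxia targets thus had the opposite fitted sign to Adm. Arnt2, a partner of the HIF subunits in the nervous system, averaged 8.51 ± 1.78 FPKM in IVCC kidneys, beside 6.21 ± 0.81 FPKM in Sham kidneys, with overlap (limma adjusted p = 0.924).

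Of the 21 other tested genes of glycolysis and pyruvate entry, Mpc2, a subunit of the mitochondrial pyruvate carrier, averaged 480.4 ± 94.4 FPKM in IVCC kidneys, beside 623 ± 138 FPKM in Sham kidneys, and Pdk3, a pyruvate dehydrogenase kinase, 30.5 ± 0.847 FPKM in IVCC kidneys, beside 34.5 ± 1.14 FPKM in Sham kidneys. Their log2 fold changes were -0.37 and -0.17, with limma adjusted p-values of 0.924 and 0.924. Of the 12 other tested sugar and lactate carriers, Slc2a12, a facilitative carrier, stood at 4.17, 4.73 and 4.05 FPKM in the IVCC replicates, beside 3.59, 3.02 and 3.87 FPKM in the Sham replicates, wholly higher in IVCC with a log2 fold change of 0.24 (95% interval -0.059 to 0.55, limma adjusted p = 0.924). The fructose carrier gene Slc2a5 averaged 29.2 ± 5.3 FPKM in IVCC kidneys, beside 35.7 ± 8.04 FPKM in Sham kidneys and the lactate carrier gene Slc5a8 69.9 ± 7.81 FPKM in IVCC kidneys, beside 79.8 ± 7.01 FPKM in Sham kidneys, with limma adjusted p-values of 0.924 and 0.924. Among 16 other tested genes of gluconeogenesis and its control, the transcription factor gene Foxo3 had the smallest p, at 3.06, 5.31 and 2.1 FPKM in the IVCC replicates, beside 2.12, 2.52 and 1.27 FPKM in the Sham replicates and a log2 fold change of 0.56 (95% interval -0.10 to 1.22, limma adjusted p = 0.924). Its relative Foxo1, which drives gluconeogenic genes in liver, averaged 9.37 ± 0.792 FPKM in IVCC kidneys, beside 8.001 ± 0.481 FPKM in Sham kidneys, and Fbp2, the muscle-type fructose bisphosphatase, 20.7 ± 2.96 FPKM in IVCC kidneys, beside 25.2 ± 4.34 FPKM in Sham kidneys, with limma adjusted p-values of 0.924 and 0.924. Vegfa, the angiogenic HIF target, stood at 83.2, 89.3 and 82.4 FPKM in the IVCC replicates, beside 84.1, 106 and 55.9 FPKM in the Sham replicates, with IVCC inside the wider Sham range. Car9, a carbonic anhydrase that is a sensitive HIF target in tumours, averaged 8.25 ± 1.61 FPKM in IVCC kidneys, beside 8.15 ± 1.22 FPKM in Sham kidneys. Epo, the HIF2A target of renal interstitial cells, was listed at 0 in 5 libraries and at 0.32 FPKM in Sham replicate 3.

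For the libraries as a whole, deposited FPKM summed to 719896 to 927860 in IVCC and 775720 to 1118260 in Sham, with replicate 3 the highest of each group. From the spacing of the lowest values, library size was estimated at 8030000 to 8990000 reads for the IVCC libraries and at 6040000 to 7230000 reads for the Sham libraries, and no measured depth was used. Marker genes placed the tissue as kidney, with S1 and S2 markers at 60.5 FPKM (Slc5a12) to 2576 FPKM (Slc34a1). The fat markers Adipoq, Plin1, Cfd and Lep and the muscle markers Ckm, Myh1, Myh2 and Myh4 were listed at 0 in all 6 libraries. Of the same lists, Fabp4 stood at 74.7 to 139 FPKM in IVCC kidneys and at 85.9 to 140.3 FPKM in Sham kidneys, and Mylpf at 1.49 to 2.77 FPKM in IVCC kidneys and 1.76 to 2.37 FPKM in Sham kidneys, while Cidec, Acta1, Tnnt3 and Tnni2 stayed under 1 FPKM. Pgam2, the muscle-type mutase, averaged 135 ± 32.9 FPKM in IVCC kidneys, beside 141 ± 24.2 FPKM in Sham kidneys. Urothelial markers summed to 0.765 to 1.47 FPKM in IVCC kidneys, beside 0.501 to 8.05 FPKM in Sham kidneys, the highest sum being Sham replicate 3.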

How the data were processed

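Per the labels' protocols, a stranded mRNA kit and single-end reads were used for kidney RNA. The 6 libraries (3 IVCC, 3 Sham) were grouped by their titles. The authors deposited FPKM values for 24346 symbols, with a column for each library. The submitters' processing notes name the build mm10 and, with no roles, Cufflinks 2.2.1, TopHat2 2.0.13, SAMtools 0.1.19 and Bowtie2 2.2.3. The sources used here do not state the annotation or any filter. How reads shared by gene copies were counted is not stated, and a listed 0 may be an estimate that failed.

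Genes averaging 1 FPKM or more (12090, with 12256 below) were put on the log2(FPKM + 1) scale and tested two-sided between groups by limma 3.58.1 under R 4.3.3 (eBayes with a mean-variance trend, Benjamini-Hochberg adjustment over all tested genes, threshold 0.05). The fit was tested on simulated data. The 95% intervals are limma's, per gene. With 3 against 3 libraries the smallest p of an exact permutation test is 0.1, and that test was not used. Low values (under 0.1 FPKM, transcripts of 1500 to 5000 bp, an assumed fragment of 200 bp) were whole reads within 0.1 for 81.1% to 85.7%, too few for a count test. True depth, and so the counting error of each value, is unknown.

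All 37 genes are named, as are the 3 genes with the smallest p of each further pathway list, and those named for comparison (Pklr, Pgam2, Eno1b, Vegfa, Car9, Epo, Cyp7b1, Angptl4, Pdk4, Sord, Akr1b3) were picked after their values were seen. A further item of the pathway and its step are not reported here. The genes, lists and tests were chosen with earlier results of these data known. Gene positions are from GENCODE M21 (GRCm38, the assembly of mm10). Alternatives were pseudocounts of 0.1 and 5, dropping the filter or raising it to 5 FPKM, TPM, median ratio and quantile scaling, eBayes without trend or robust, the replicate number as a block, and each library left out. Leaving out both libraries numbered 3, and the overlap counts under the scalings, were added after the data were seen.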

Additional observations from a re-analysis of the deposited data

How the results depend on the processing

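Limma called 0 of the 35 genes tested, and 0 of the other pathway genes, under every alternative run, and the smallest adjusted p among the 35 was from 0.135 (replicate number as a block) upward. After TPM scaling the median log2 fold change was 0.31 for glucose transport, 0.12 for glycolysis and 0.19 for HIF factors and targets. The median for gluconeogenesis and fructose was 0.34 after TPM scaling and 0.27 after quantile normalization. After TPM scaling these uncalled log2 fold changes had the opposite sign to those reported: Slc2a1 0.16, Gpi1 0.13, Pfkl 0.055, Pfkm 0.14, Pfkp 0.017, Aldoa 0.074, Tpi1 0.065, Pgk1 0.10, Pgam1 0.17, Ldha 0.072, Ldhb 0.094, Fbp1 0.11, Egln1 0.12, Bnip3 0.14, P4ha1 0.11 and Pdk3 0.0021. After quantile normalization the median log2 fold change was 0.10 for glycolysis. Quantile normalization also gave 0.22 for glucose transport and 0.068 for HIF factors and targets. After quantile normalization these uncalled log2 fold changes had the opposite sign to those reported: Slc2a1 0.024, Gpi1 0.083, Pfkm 0.024, Aldoa 0.12, Tpi1 0.10, Pgk1 0.10, Pgam1 0.14, Ldha 0.081, Ldhb 0.17, Pfkfb3 -0.032, Fbp1 0.16, Khk 0.037, Egln1 0.0016 and Bnip3 0.068. After leaving out both libraries numbered 3 these uncalled log2 fold changes had the opposite sign to those reported: Pfkm 0.055, Pgk1 0.013, Pgam1 0.021, Pfkfb3 -0.069, Pck1 -0.013, Fbp1 0.041, Egln1 0.016 and P4ha1 0.0016. With each library left out in turn, genes called of all tested ranged from 0 to 4 and the median log2 fold change of HIF factors and targets ranged from -0.056 to 0.090, and without both libraries numbered 3 genes called were 4. All of these calls were microRNA or small nucleolar RNA genes listed at 0 in every library kept of 1 group. Uncalled values that changed sign with some library left out ranged as follows: Eno1 -0.10 to 0.20, Pkm -0.11 to 0.12, Ndrg1 -0.046 to 0.29, Slc2a1 -0.11 to 0.085, Gpi1 -0.15 to 0.073, Pfkm -0.16 to 0.10, Aldoa -0.23 to 0.047, Pgam1 -0.10 to 0.050, Ldhb -0.24 to 0.062, Pck1 -0.17 to 0.34, G6pc -0.0043 to 0.50, Vhl -0.064 to 0.090, Tpi1 -0.22 to 0.024, Gapdh -0.43 to 0.022, Pgk1 -0.13 to 0.012, Pfkfb3 -0.11 to 0.11 and Fbp1 -0.15 to 0.088. Whether the replicate numbers pair the libraries is not settled. Deviations from the group means correlated at -0.11 for number 1, 0.34 for 2 and 0.32 for 3. They correlated at -0.37 for IVCC replicate 2 with Sham replicate 3, and at -0.36 for IVCC replicate 3 with Sham replicate 2. The libraries numbered 1 did not correlate best with each other. With the replicate number as a block, members called stayed at 0 (limma), with 8 at an unadjusted p under 0.05 (Epas1, G6pc, Hif1a, Pck2, Pcx and Slc2a2 higher, Gapdh and Khk lower) beside 2388 of all tested genes, against 431 without the block. The number of reads behind each FPKM is unknown, which limits Hk2, Slc16a3 and Pfkfb3 most.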

Other observations

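Angptl4, a secreted inhibitor of lipoprotein lipase that rises with fasting and hypoxia in several tissues, varied more between replicates than any of the 35 tested genes. It stood at 20.5, 28.0 and 92.4 FPKM in the IVCC replicates, beside 25.005, 35.6 and 109 FPKM in the Sham replicates, highest in replicate 3 of each group, and its log2 fold change was -0.28 (95% interval -1.82 to 1.26, limma adjusted p = 0.948). Pck1 and G6pc, both induced by fasting in liver and kidney, were also highest in replicate 3 of each group. Pdk4, another gene induced by fasting, was at 3.83, 4.93 and 5.47 FPKM in the IVCC replicates, beside 4.19, 5.86 and 4.44 FPKM in the Sham replicates. Its highest IVCC value was in replicate 3 and its highest Sham value in replicate 2. The part of feeding state in these values was not tested. The ratio of the highest to the lowest of the 6 libraries was 5.3 for Angptl4, 2.12 for G6pc, 2.08 for Pck1 and 2.04 for Gapdh, beside 1.07 for Slc5a1 and 1.08 for Bnip3.

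Akr1b3, the aldose reductase gene that makes sorbitol in the medulla, was listed at 0.001 FPKM or 0 in all 6 libraries, whereas Sord, the next enzyme of that route, averaged 1086 ± 20.9 FPKM in IVCC kidneys, beside 1046 ± 59.6 FPKM in Sham kidneys. A listed level near 0 can be a failed estimate and says nothing of expression.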
